A study of Bos taurus with 8 samples.

Results

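The MAP kinase phosphatase genes DUSP1, DUSP2, DUSP4, DUSP5, DUSP6 and DUSP10 and the stress-response genes GADD45A, GADD45B and GADD45G were followed in peripheral blood mononuclear cells, the lymphocytes and monocytes of the blood, of cattle. These 9 genes, of 26667 genes and unnamed accessions on the array, were taken by name whatever their values, with all 18 probes whose accession belongs to one of them. The groups were lame crossbred, normal crossbred and normal Tharparkar animals, the last an Indian zebu breed, on 4, 2 and 2 single-colour Agilent bovine arrays. Age, sex, treatment, the kind of lameness and the breeds behind the crossbred animals are not given in the sources used here. Per the labels' protocols each RNA sample was hybridised as a technical pair, and nothing says whether a sample came from 1 animal or from a pool.

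MAP kinases (ERK, JNK and p38) carry signals from growth factors, cytokines and stress, and are active while both a threonine and a tyrosine in their activation loop are phosphorylated. Dual-specificity phosphatases remove both phosphates. In human and mouse cells several of their genes are transcribed soon after a MAP kinase is activated, so that the phosphatase ends the signal that induced it. GADD45 proteins are small, have no enzyme activity of their own and act by binding: they activate the kinase MAP3K4 upstream of p38 and JNK, and they bind the replication clamp PCNA and the mitotic kinase CDK1.

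In the following, a level is the log2 processed signal of a probe minus the 75th percentile of its array, so that 0 is the level below which 75% of the probes lie. A gene was represented by its probe with the highest mean, and a difference was called at an adjusted p under 0.05 in limma, Benjamini-Hochberg over the 15137 genes that passed a filter on dim probes. The lame arrays read as 2 RNA samples (R1_1 and R1_2, R2_1 and R2_2; correlation across genes 0.995 and 0.981 within a pair), and each normal group as 1 sample run as a pair (0.997 in crossbred, 0.995 in Tharparkar). P-values here reflect how arrays vary, and as tests of animals they are too small. Lame R2_2 stood apart, with 70.9% of probes well above background against 52.8% to 61.5% on the other arrays and a median raw signal of 192.5 against 74 to 102. Markers of T cells were well above background on every array for 14 of 15 measured genes, those of monocytes for 10 of 10 and those of B cells for 5 of 5. Granulocyte markers, which a mononuclear preparation should largely lack, were well above background on every array for 9 of 15.

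The phosphatase genes DUSP1, DUSP2 and DUSP6 and the stress gene GADD45G fell in the lame group against both normal groups. Against normal crossbred arrays, 4 of the 8 tested members fell and 0 rose in limma (0 also at an unadjusted p under 0.05), where 6.33% of all genes fell and 3.28% rose. Against normal Tharparkar arrays, the same 4 and GADD45A fell, 5 of the 7 members well above background on every array, as did DUSP5, and 0 rose (1, DUSP10, at an unadjusted p under 0.05), where 10.7% of all genes fell and 12.6% rose. Between the normal groups 1 of the 7 rose in crossbred (DUSP10, where 11.8% of all genes rose) and 0 fell in limma (3 at an unadjusted p under 0.05: DUSP2, GADD45A and GADD45G). DUSP5 also fell there, where 6.88% of all genes fell, but it passed the filter through the Tharparkar group in which it was high, so its falls are no support. The 3 comparisons share arrays, so their values stand side by side and are not independent of each other.

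Among the 7 members well above background on every array, the median log2 fold change was -1.06 in lame minus normal crossbred, beside -0.04 over all genes. It was -1.27 in lame minus Tharparkar, beside -0.01, and -0.31 in normal crossbred minus Tharparkar, beside 0.01. For 6 of these 7 members every lame array lay below both normal crossbred arrays, as was so for 23.1% of all genes. For 5 of the 7, and DUSP5, every lame array lay below both Tharparkar arrays, against 25.1% of all genes. DUSP1, DUSP2, DUSP6, GADD45A and GADD45G, 5 of the 7, had every lame array below every array of both normal groups, against 10.2% of all genes. Each normal group reads as 1 RNA sample run as a pair, so a lack of overlap between the normal groups says little. Every tested member lacked overlap between them, also DUSP1, DUSP2, DUSP6, GADD45A, GADD45B and GADD45G, which were not called there. The share of all genes without overlap between the normal groups is not given here, so this is not read as a trait of the members.

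**Figure D1:**
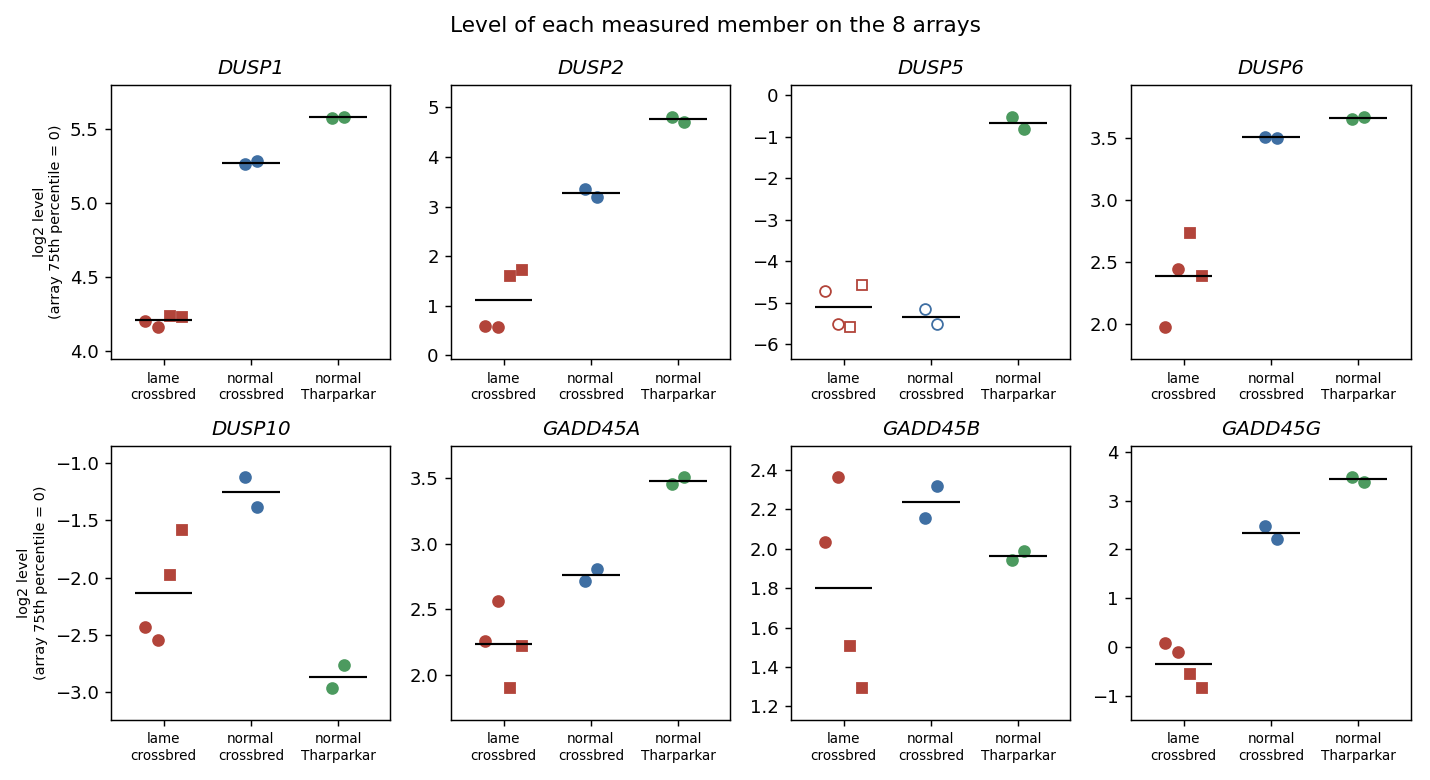
Log2 level of each of the 8 members with a kept probe (vertical axis, 0 at the array's 75th percentile) on every array of the 3 groups (horizontal axis). Black lines are group means, squares are the lame R2 arrays, and open symbols are DUSP5 groups in which no array was well above background. DUSP1, DUSP2, DUSP6, GADD45A and GADD45G have all 4 lame arrays below all 4 normal arrays, and the vertical scale differs between panels.

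DUSP1 encodes a nuclear phosphatase of p38, JNK and ERK that glucocorticoids also induce, and mice without it overproduce inflammatory cytokines. Its level was 4.20, 4.16, 4.23 and 4.23 on lame R1_1, R1_2, R2_1 and R2_2. It was 5.26 and 5.28 on the normal crossbred arrays, and 5.57 and 5.58 on the Tharparkar arrays. The 3 groups did not overlap, and both lame RNA samples gave nearly the same level. DUSP1 fell 2.09-fold against normal crossbred (log2 fold change -1.06, SE 0.12, adjusted p = 0.0031, limma) and 2.59-fold against Tharparkar (-1.37, SE 0.12, adjusted p = 0.00054). The difference between the normal groups was -0.31 (SE 0.14, adjusted p = 0.17). The call against normal crossbred was lost without either normal crossbred array (adjusted p 0.066 without R1 and 0.064 without R2). By the mean of the gene's 3 probes the difference from Tharparkar was -2.02, and that between the normal groups -1.06 (adjusted p = 0.032). The call against Tharparkar was lost with averaged pairs (0.46).

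DUSP2, also called PAC1, is a nuclear ERK phosphatase first described in activated lymphocytes. Its level was 0.60, 0.56, 1.61 and 1.73 on the 4 lame arrays in the same order. Normal crossbred arrays had 3.36 and 3.19, and Tharparkar arrays 4.81 and 4.70. All lame arrays were lowest, although lame R1 and lame R2 differed from each other by 1.08. DUSP2 fell 4.43-fold against normal crossbred (-2.15, SE 0.37, adjusted p = 0.014) and 12.4-fold against Tharparkar (-3.63, SE 0.37, adjusted p = 0.00098). Normal crossbred minus Tharparkar was -1.48 (SE 0.43), with an adjusted p of 0.051 that missed the threshold. This difference was called in 8 of 17 refits, such as without lame R2_2 (0.025). It was not called with quantile normalization (0.13) or without a filter on dim probes (0.17). The call against normal crossbred was lost without a filter on dim probes (adjusted p = 0.072) and without normal crossbred R1 (0.16) or R2 (0.13).

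DUSP4, a nuclear phosphatase related to DUSP1 and DUSP2, gave no measured level. Its 2 probes were well above background on 0 of 8 arrays and were left out of the fit. The array lame R2_2 had the highest level on both probes, -5.06 and -3.62, while the other lame arrays lay between -6.94 and -6.25.

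DUSP5 is a nuclear phosphatase specific for ERK. Its single probe had -0.51 and -0.82 on the Tharparkar arrays, and these were the arrays on which it was well above background. Lame arrays had -4.71, -5.53, -5.60 and -4.58, and normal crossbred arrays -5.16 and -5.51, all at background. The gene thus passed the filter through the Tharparkar group alone, and its fold against that group is a lower bound, set at the dimmest signal well above background on each array. DUSP5 was at least 12.9-fold lower in lame than in Tharparkar arrays (adjusted p = 0.00032) and at least 16.7-fold lower in normal crossbred than in Tharparkar arrays (adjusted p = 0.00059). Between lame and normal crossbred both groups were at background, so no fold is given. With normexp background correction the fitted difference from Tharparkar was smaller, -1.73 in lame and -1.67 in normal crossbred, and still called.

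DUSP6 is the cytoplasmic phosphatase of ERK, induced by ERK signalling itself. Its level was 1.98, 2.44, 2.74 and 2.39 on the lame arrays. Normal crossbred arrays had 3.51 and 3.50, and Tharparkar arrays 3.65 and 3.67. Lame arrays were spread over a wider range than either pair of normal arrays and did not reach them. DUSP6 fell 2.17-fold against normal crossbred (-1.12, SE 0.21, adjusted p = 0.020) and 2.42-fold against Tharparkar (-1.27, SE 0.21, adjusted p = 0.0061), while the normal groups differed by -0.15 (SE 0.24, adjusted p = 0.71). The call against normal crossbred held in 8 of 17 refits and was lost with quantile normalization (adjusted p = 0.075), normexp (0.062), the mean of the 3 probes (0.12), no filter (0.10), averaged pairs and without any 1 of the 4 normal arrays (0.052 to 0.19). The call against Tharparkar was lost without either Tharparkar array (0.064 in each case) and with averaged pairs (0.56).

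DUSP10 prefers p38 and JNK over ERK, and in mice it restrains cytokine production by T cells and innate cells. It had a pattern of its own among the members. Its level was -2.43, -2.54, -1.98 and -1.58 on the lame arrays, -1.12 and -1.38 on the normal crossbred arrays and -2.96 and -2.76 on the Tharparkar arrays. The groups did not overlap, with lame between the normal groups. DUSP10 rose 3.06-fold in normal crossbred against Tharparkar (1.61, SE 0.32, adjusted p = 0.015). Lame minus normal crossbred was -0.88 (SE 0.28, adjusted p = 0.098) and lame minus Tharparkar was 0.73 (SE 0.28, adjusted p = 0.10). The rise between the normal groups was 0.63 on the log2 scale with normexp, and its call was lost by the mean of both probes (adjusted p = 0.11), with no filter (0.068), with averaged pairs (0.48) and without any 1 of the 4 normal arrays (0.075 to 0.11). Lame minus normal crossbred was called in 4 of 17 refits. These included quantile normalization (-1.05, adjusted p = 0.0085), normexp (-0.57, 0.011) and the fit without lame R2_2 (-1.06, 0.024). It was not called by the mean of both probes (-0.46, 0.62) or with no filter (0.30). Lame minus Tharparkar was 0.06 with normexp.

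GADD45A is the member best known as a target of p53 after DNA damage. Its level was 2.26, 2.56, 1.90 and 2.22 on the lame arrays, 2.72 and 2.81 on the normal crossbred arrays and 3.46 and 3.51 on the Tharparkar arrays. The groups did not overlap. It fell 2.38-fold in lame against Tharparkar (-1.25, SE 0.19, adjusted p = 0.0048). Lame minus normal crossbred was -0.53 (SE 0.19, adjusted p = 0.14) and normal crossbred minus Tharparkar was -0.72 (SE 0.22, adjusted p = 0.063). The call was lost without either Tharparkar array (0.054 without R1 and 0.057 without R2) and with averaged pairs (0.57).

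GADD45B is induced by NF-kB and TGF-beta signalling in human and mouse cells. Its level was 2.03, 2.36, 1.51 and 1.29 on the lame arrays, 2.15 and 2.32 on the normal crossbred arrays and 1.94 and 1.99 on the Tharparkar arrays. The lame arrays lay on both sides of the normal ones, with R1 above R2 by 0.80, which is more than any difference between groups. No comparison was called: lame minus normal crossbred was -0.44 (adjusted p = 0.41), lame minus Tharparkar -0.17 (adjusted p = 0.72) and normal crossbred minus Tharparkar 0.27 (adjusted p = 0.63), with SE 0.30 to 0.34 in limma. The unadjusted p-values were 0.18, 0.59 and 0.45 in the same order. By the mean of both probes lame minus normal crossbred was 0.26 and normal crossbred minus Tharparkar -0.45.

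GADD45G is induced by cytokines and, in mice, supports interferon-gamma production by T helper cells. It had the largest fitted difference of the 8 tested members in lame minus normal crossbred. Its level was 0.09, -0.10, -0.56 and -0.84 on the lame arrays, 2.48 and 2.21 on the normal crossbred arrays and 3.48 and 3.39 on the Tharparkar arrays. All lame arrays lay far below all normal arrays. GADD45G fell 6.49-fold against normal crossbred (-2.70, SE 0.27, adjusted p = 0.0018) and 13.8-fold against Tharparkar (-3.79, SE 0.27, adjusted p = 0.00027). Normal crossbred minus Tharparkar was -1.09 (SE 0.31), with an adjusted p of 0.051. The calls in both lame comparisons held in 17 of 17 refits, with a value of -1.78 against normal crossbred by the mean of both probes.

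**Figure D2:**
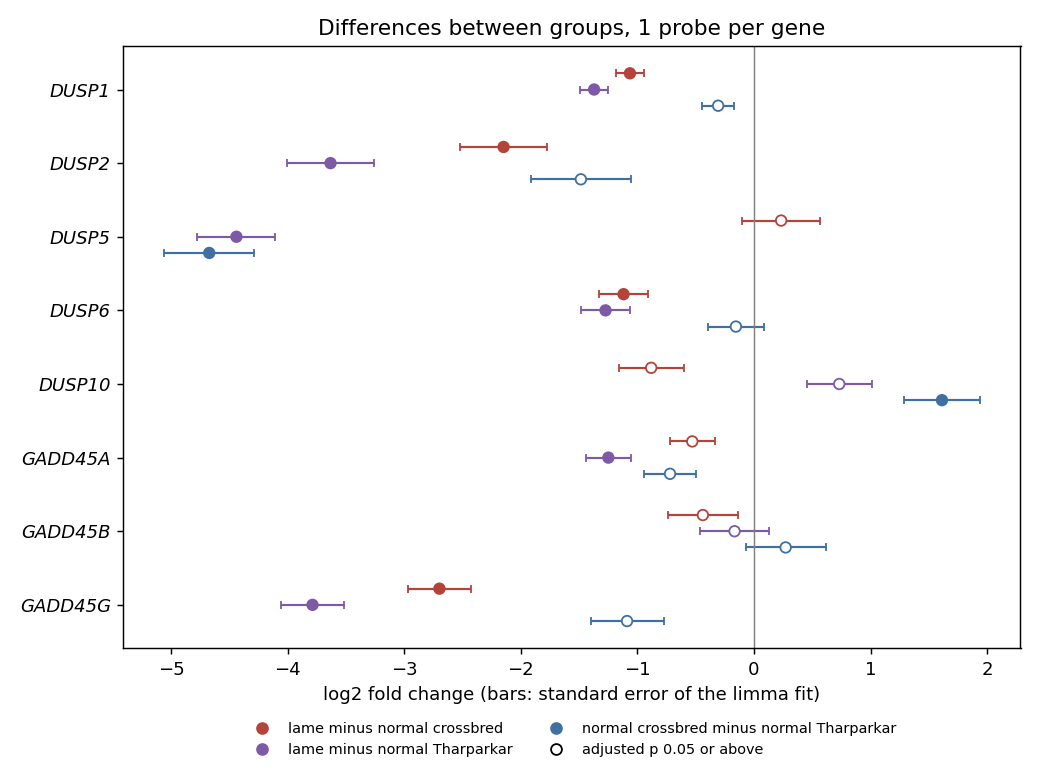
Log2 fold change of each member (horizontal axis) in the 3 comparisons, with the standard error of the limma fit as bars and filled points where adjusted p was under 0.05. DUSP1, DUSP2, DUSP6 and GADD45G have filled points below 0 in both lame comparisons, and DUSP10 is filled above 0 in normal crossbred minus Tharparkar. DUSP5 values are fitted on signals at background in the lame and normal crossbred groups and are no bounds.

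How far these calls rest on technical pairs was examined by averaging each pair, which leaves 4 observations and 1 residual degree of freedom. The lone sample of each normal group is then assumed to vary like the lame samples. The prior of that fit was infinite, so that a call depended on the size of the difference alone and says little of how stable it is. Against normal crossbred, GADD45G had an adjusted p of 0.0085 and DUSP2 of 0.089, and DUSP1 and DUSP6 had 1.0 each. Against Tharparkar, GADD45G had 4.0e-06 and DUSP2 1.1e-05, while the calls of DUSP1 (0.46), DUSP6 (0.56) and GADD45A (0.57) were lost. The normal crossbred pair also decided calls: without either of these arrays GADD45G alone among the members was called against normal crossbred, with adjusted p 0.040 without R1 and 0.030 without R2. The difference between groups was larger than that between lame R1 and lame R2 for 6 of the 7 members well above background on every array in each lame comparison, GADD45B being the exception, where this held for 37.6% of all genes against normal crossbred and 46.9% against Tharparkar. Both slides carried every group. Within slides 1 and 2 the differences from normal crossbred were -1.04 and -1.08 for DUSP1, -2.25 and -2.04 for DUSP2, -1.15 and -1.08 for DUSP6, and -2.72 and -2.68 for GADD45G. Each slide held 1 array of each pair, so the slides compare the same RNA samples and are not independent repeats.

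Other probes of the same genes were examined, since 6 members had more than 1 kept probe. In a fit over all 24658 kept probes, 6 of 16 member probes fell in lame against normal crossbred (4.14% of all probes). In lame against Tharparkar 10 of 16 fell (9.8%), and in normal crossbred against Tharparkar 4 of 16 fell (7.97%). Both counts against Tharparkar include the DUSP5 probe, which passed the filter through the Tharparkar group alone, so its falls are no support. The second DUSP1 probe, A_73_108770, had 3.21, 3.46, 3.24 and 3.26 on lame arrays, 4.32 and 4.18 on normal crossbred and 4.41 and 4.56 on Tharparkar arrays, and fell by 0.95 on the log2 scale against normal crossbred (adjusted p = 0.013). The second DUSP6 probe, A_73_P389491, had -0.76, -0.73, -0.05 and -0.15 on lame arrays, 1.15 and 1.08 on normal crossbred and 1.32 and 1.34 on Tharparkar arrays, and fell by 1.54 (adjusted p = 0.014). Both followed the brighter probe of their gene.

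Against normal crossbred, the dimmer probes of several members did not follow the brighter ones. The third DUSP1 probe, A_73_P107251, had -2.57, -2.78, -0.95 and -0.54 on lame arrays, -0.91 and -0.80 on normal crossbred arrays and 1.86 and 1.71 on Tharparkar arrays, so that the lame arrays overlapped the normal crossbred ones (-0.85, adjusted p = 0.46). The third DUSP6 probe, A_73_P227087, likewise overlapped between lame and normal crossbred (-0.22, SE 0.64, adjusted p = 0.87), as did the second DUSP10 probe, A_73_P269226 (-0.03, SE 0.77, adjusted p = 0.99). The second GADD45G probe, A_73_P451571, had -4.27, -5.40, -2.91 and -1.14 on lame arrays, -2.56 and -2.57 on normal crossbred and -0.07 and -0.21 on Tharparkar arrays. It was well above background on 3 of 4 lame arrays, and its difference from normal crossbred was -0.87 (SE 1.02, adjusted p = 0.65), against -2.70 by the brighter probe. Against Tharparkar these dim probes had the same sign as the brighter ones: the third DUSP1 probe fell (-3.49, adjusted p = 0.010), and the third DUSP6 probe (-2.02, 0.061), the second GADD45G probe (-3.29, 0.059) and the second DUSP10 probe (1.45, 0.22) missed the threshold.

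The second GADD45A probe, A_73_P154462, was -0.26 in lame minus normal crossbred (adjusted p = 0.34) and fell in lame against Tharparkar (-0.90, adjusted p = 0.0072) and in normal crossbred against Tharparkar (-0.64, adjusted p = 0.043). The second GADD45B probe, A_73_P379376, had -2.75, -2.51, -2.09 and -1.84 on lame arrays, above the -3.35 and -3.17 of normal crossbred arrays, with -2.16 and -2.00 on Tharparkar arrays. Its difference of 0.96 in lame minus normal crossbred was opposite in sign to that of the brighter GADD45B probe and missed the threshold (adjusted p = 0.077). It fell in normal crossbred against Tharparkar (-1.17, adjusted p = 0.038), as did the third DUSP1 probe (-2.64, adjusted p = 0.048). With slide as a block these falls between the normal groups were lost, with adjusted p 0.058 for the second GADD45B probe, 0.066 for the second GADD45A probe and 0.085 for the third DUSP1 probe.

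The gap between the dimmest and the brightest probe of a gene varied with the array. After centring on the gene's own mean, the dimmest minus the brightest probe had a median over the 6 members of -0.46, -0.72, 0.60 and 1.33 on lame R1_1, R1_2, R2_1 and R2_2. It was -0.83 and -0.74 on normal crossbred arrays and 0.22 and 0.25 on Tharparkar arrays. Over all 5848 genes with several kept probes the same medians were -0.19, -0.17, 0.28 and 0.58 on lame, -0.21 and -0.17 on normal crossbred and -0.07 and -0.06 on Tharparkar arrays. The highest value was on lame R2_2 in both. The part of this gap in the members' differences was not tested.

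**Figure D3:**
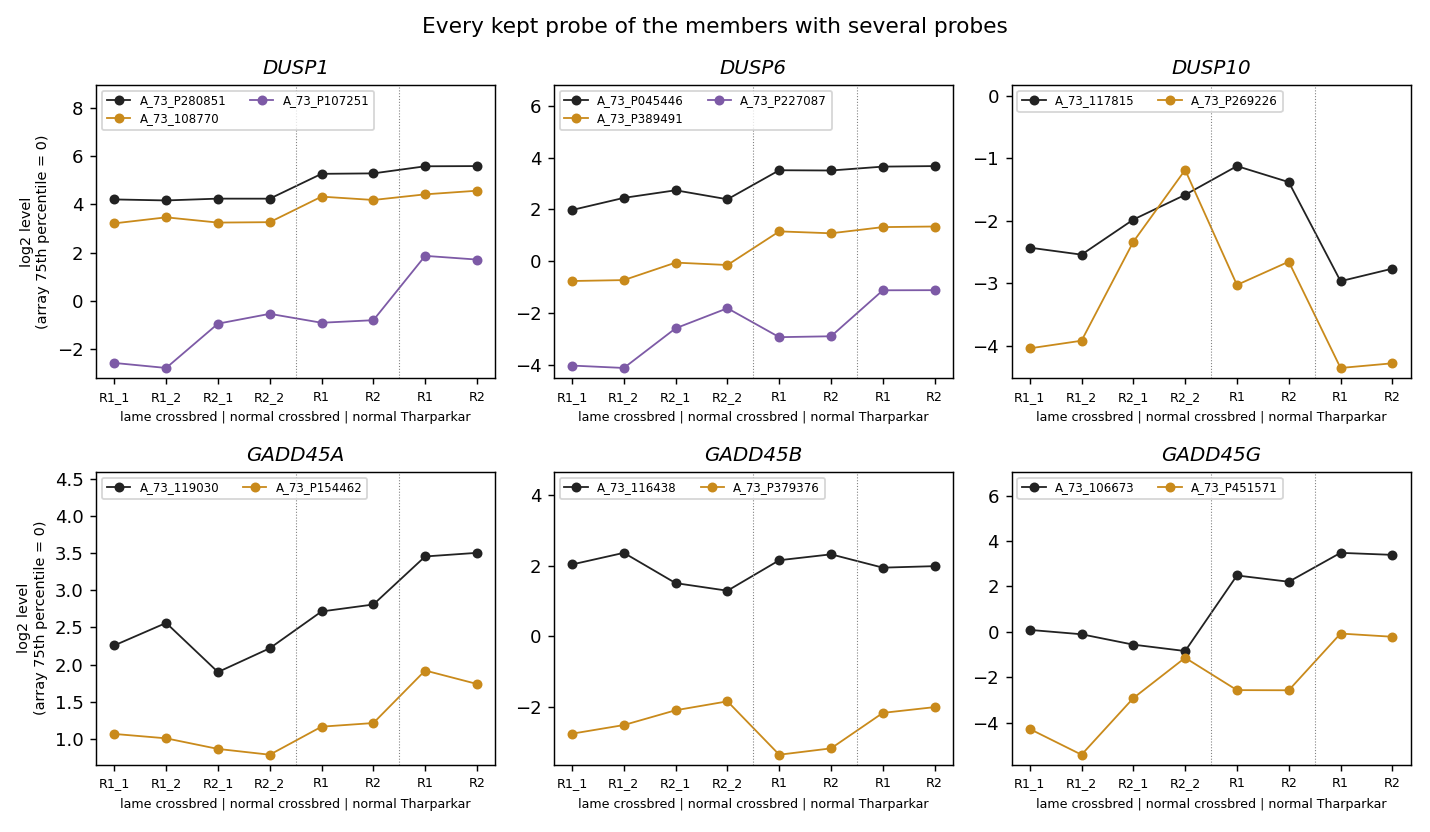
Log2 level (vertical axis) of every kept probe of the 6 members with several kept probes on the 8 arrays (horizontal axis, lame crossbred, then normal crossbred, then normal Tharparkar), 1 line per probe. The brightest probes of DUSP1, DUSP6 and GADD45G step up between the lame and the normal arrays, whereas the dimmest probes of DUSP1, DUSP6, DUSP10 and GADD45G have lame R2_2 above both normal crossbred arrays.

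The rest of the pathway was read from lists of its components. Over all genes, 6.33% fell and 3.28% rose in lame against normal crossbred, and 10.7% fell and 12.6% rose in lame against Tharparkar. In normal crossbred against Tharparkar 6.88% fell and 11.8% rose. All list counts below stand beside these shares, and some are near them, such as 1 of 10 MAP3 kinases rising in lame against Tharparkar. Of the other typical MAP kinase phosphatases, DUSP7, DUSP8, DUSP9 and DUSP16, 0 of 4 were measured. Of 7 measured atypical dual-specificity phosphatases, 1 rose and 0 fell in lame against normal crossbred: STYXL1, a catalytically inactive relative (1.92, SE 0.22, adjusted p = 0.0031). STYXL1 fell in normal crossbred against Tharparkar (-2.64, adjusted p = 0.00093) and in lame against Tharparkar (-0.73, adjusted p = 0.049), where STYX, another inactive relative, rose (0.86, adjusted p = 0.025). The 3 tyrosine phosphatases of MAP kinases had 0 calls in lame against normal crossbred, also at an unadjusted p under 0.05. PTPN5 fell in lame against Tharparkar (-1.72, adjusted p = 0.042), whereas PTPRR rose there (adjusted p = 0.0029, well above background on 3 of 4 lame and 0 of 2 Tharparkar arrays). PTPRR was at least 3.09-fold higher in normal crossbred than in Tharparkar arrays (adjusted p = 0.0036).

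Of 9 measured MAP kinases, 1 rose and 0 fell in lame against normal crossbred, MAPK13, a p38 kinase (0.80, adjusted p = 0.042). In lame against Tharparkar 2 rose: MAPK8, which encodes JNK1 (0.81, adjusted p = 0.0054), and MAPK12, well above background on 1 of 2 Tharparkar arrays (adjusted p = 0.0105). The same 2 rose in normal crossbred against Tharparkar, MAPK8 by 0.79 (adjusted p = 0.012). Of 6 MAP2 kinases, MAP2K6, which activates p38, fell in lame against Tharparkar (-0.65, adjusted p = 0.029) and there was no other call in limma, where 3 fell at an unadjusted p under 0.05.

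Of 10 measured MAP3 kinases 2 rose in lame against normal crossbred, MAP3K6 (1.35, adjusted p = 0.013) and MAP3K8 (0.90, adjusted p = 0.034). In lame against Tharparkar 1 rose, MAP3K13 (1.33, adjusted p = 0.015). MAP3K4, the kinase that GADD45 proteins bind, was not among the measured genes. Of 9 effector kinases 0 rose and 2 fell in lame against normal crossbred, RPS6KA1 (-0.83, adjusted p = 0.013) and RPS6KA5 (-0.69, adjusted p = 0.019), both substrates of ERK.

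Lists made mostly of genes that, like these phosphatases, are induced by MAP kinase signalling in human and mouse cells were also counted. The immediate early list also holds SRF, ELK1, ELK3 and ELK4, factors through which MAP kinases act. Of 3 measured ERK feedback inhibitors, 0 were called in lame against normal crossbred, also at an unadjusted p under 0.05, and SPRY1 (-2.15, adjusted p = 0.020) and SPRY2 (-1.13, adjusted p = 0.0090) fell in lame against Tharparkar. Of 20 measured immediate early transcription factors and regulators, 9 fell and 0 rose in lame against normal crossbred, with a median log2 fold change of -0.62. In lame against Tharparkar 12 fell and 1 rose (median -1.12), and in normal crossbred against Tharparkar 6 fell and 1 rose (median -0.54). Those furthest down against Tharparkar were FOSB (-3.70, adjusted p = 3.2e-05), a subunit of AP-1, the nuclear receptor NR4A2 (-3.64, adjusted p = 0.00090) and ATF3 (-3.50, adjusted p = 0.00034), a stress-induced repressor.

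Of 17 measured p53 targets and GADD45 partners, 3 fell and 0 rose in lame against normal crossbred (median -0.44). They were CDKN1A, the p21 inhibitor of cyclin-dependent kinases (-0.93, adjusted p = 0.016), CDK1 itself (-1.21, adjusted p = 0.024) and the death receptor FAS (-0.91, adjusted p = 0.0096). In lame against Tharparkar 8 fell and 1 rose (median -0.65), with CDKN1A at -2.34 (adjusted p = 0.00026). In normal crossbred against Tharparkar 3 fell and 0 rose (median -0.37). Of 10 glucocorticoid targets other than DUSP1, 5 fell and 1 rose in lame against normal crossbred (median -0.57), led by the kinase SGK1 (-2.29, adjusted p = 0.00048) and the chemokine receptor CXCR4 (-1.81, adjusted p = 0.00057). The 1 that rose was the glucocorticoid-induced chaperone regulator FKBP5 (1.05, adjusted p = 0.0037). FKBP5 also rose in lame against Tharparkar (1.32, adjusted p = 0.00075), where 3 of 10 fell and 1 rose (median 0.06).

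**Figure D4:**
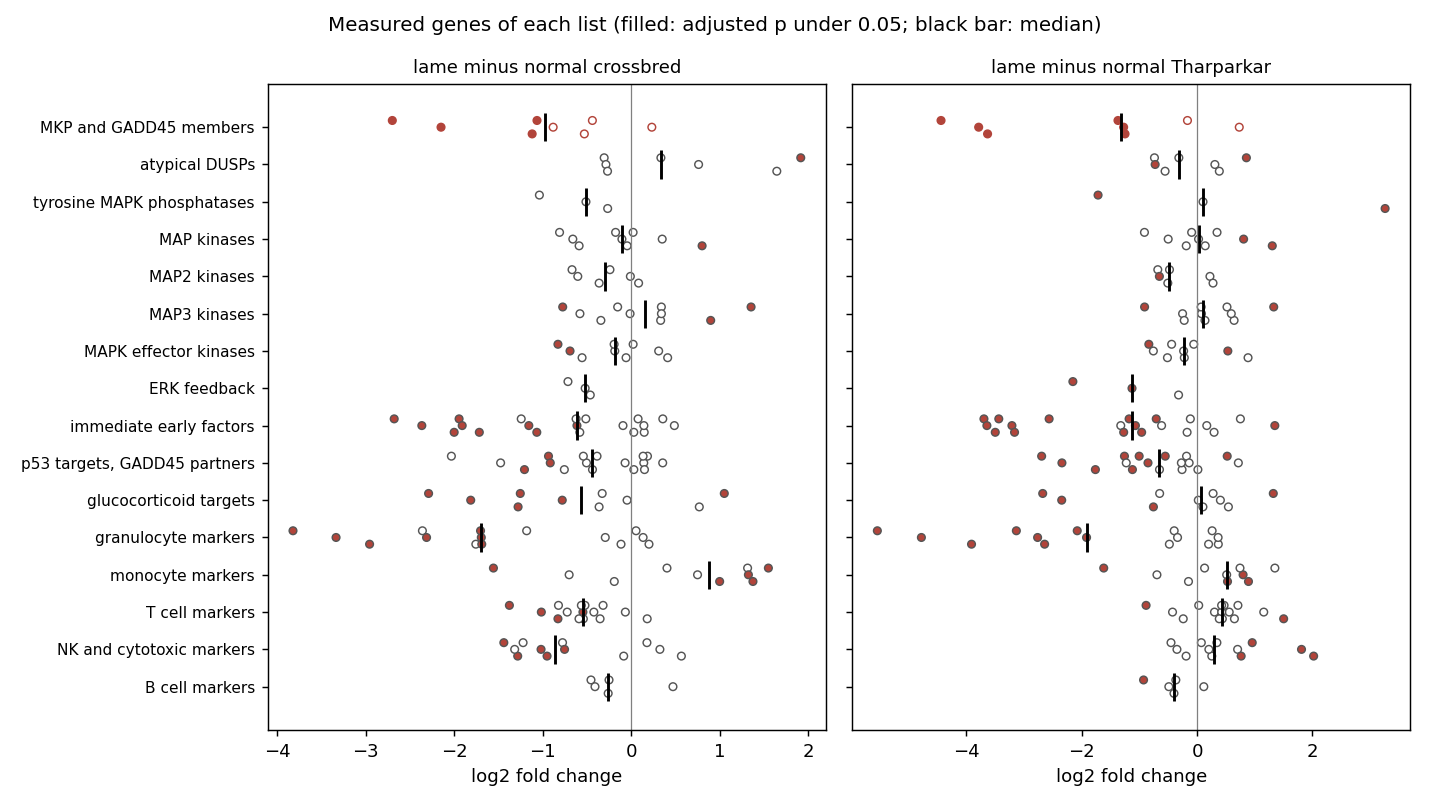
Log2 fold change (horizontal axis) of every measured gene of the members and of 15 lists (vertical axis) in lame minus normal crossbred (left) and lame minus normal Tharparkar (right), filled where adjusted p was under 0.05, with the list median as a black bar. The members, the immediate early factors and the granulocyte markers have medians below 0 in both panels. So do the ERK feedback genes, the p53 targets and GADD45 partners, the MAP2 kinases, the effector kinases and the B cell markers. The medians of the kinase lists lie nearer to 0 than that of the members. Values are fitted, also where a group was at background.

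Markers of several blood cell types changed in the same comparisons. Their counts stand beside the shares over all genes given above for the pathway lists. In whole mononuclear RNA, fewer cells of a type and less RNA per cell cannot be told apart. Of 15 measured granulocyte markers, 7 fell and 0 rose in lame against normal crossbred (median -1.69) and 8 fell and 0 rose against Tharparkar (median -1.92). Both counts include CXCR2, which was well above background on 2 of 4 lame arrays. The interleukin-8 receptor CXCR1 had -3.82 and -4.78 in these comparisons and the transglutaminase TGM3 -2.96 and -3.91. The summed level of the 15 was 7.34 to 7.71 in lame, 7.90 to 7.97 in normal crossbred and 8.03 to 8.08 in Tharparkar arrays. This order of the groups was seen for DUSP1, DUSP2, DUSP6, GADD45A and GADD45G. It was not particular to granulocyte markers: the summed levels of the immediate early factors and of the effector kinases had the same order without overlap. Summed levels add unlogged signals, so the brightest genes weigh most, and the order need not hold for most genes of a list. The bright granulocyte marker TGM3 had mean levels of 4.96 in normal crossbred and 5.92 in Tharparkar arrays. The effector kinases had 1 rise and 0 falls in normal crossbred against Tharparkar (median -0.009). Between the normal groups, 2 of the 15 granulocyte markers fell and 1 rose in normal crossbred against Tharparkar (median -0.23). CSF3R, MMP8 and CAMP were not among the measured genes, and some listed genes, such as S100A8 and S100A9, are also expressed by monocytes.

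NK and cytotoxic markers fell for 5 of 12 in lame against normal crossbred and rose for 4 of 12 against Tharparkar (medians -0.86 and 0.30). Those 4 include EOMES, well above background on 0 of 2 Tharparkar arrays, and GZMA, on 1 of 2. EOMES passed the filter only through the groups in which it was high, so its rise is no support. T cell markers fell for 4 of 15 in lame against normal crossbred (median -0.55), while 11 of 15 rose in normal crossbred against Tharparkar (median 0.98). Monocyte markers rose for 4 of 10 and fell for 1 in lame against normal crossbred (median 0.87), the 1 being CD14 (-1.56, adjusted p = 0.023). B cell markers had 0 calls of 5 in lame against normal crossbred (1 fell at an unadjusted p under 0.05) and MS4A1 lower against Tharparkar (-0.93, adjusted p = 0.0078). Of 3 platelet markers 2 rose and of 7 erythroid markers 3 rose in lame against Tharparkar, while 0 and 1 rose in lame against normal crossbred. The part of any of these cell types in the members' differences was not tested.

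The genes with the pattern most like each member were found by the root mean square difference over the 8 arrays, after centring each gene on its own mean. The 8 arrays read as 4 RNA samples, so these likenesses describe few independent points. The nearest named gene to DUSP2 was ATF3 (0.167 on the log2 scale, beside an SD of 1.59 of DUSP2 over the arrays), followed by IFIT3 (0.289). Those nearest to GADD45G were SDSL (0.239), DGAT2 (0.240) and TGM3 (0.274), the last a granulocyte marker above, beside an SD of 1.69. GADD45A was followed most closely by MND1 (0.0613), DUSP6 by THSD1 (0.106), which was at background on the lame arrays, and then UBE2G1 (0.152), and DUSP10 by CEBPE (0.136) and ALCAM (0.147) among named genes. For DUSP1 the nearest named gene was CCDC115 (0.121), for GADD45B IAH1 (0.0678) and for DUSP5 NFIB (0.359), which was likewise well above background on the Tharparkar arrays alone.

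Among the members themselves, DUSP1 and DUSP6 had the smallest difference of this kind, 0.195, and, with DUSP5 left out because most of its values were at background, DUSP10 and GADD45G the largest, 1.92. DUSP2 and GADD45G, the measured members with the widest range among those well above background on all arrays, differed by 0.677. Lame R1 and lame R2 set these 2 genes apart: DUSP2 was higher in lame R2 by 1.08, and GADD45G was higher in lame R1 by 0.69.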

How the data were processed

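Each array's deposited file held spot intensity values from the authors' scanner software, and the processed signal was background-subtracted and not scaled between arrays, per the file headers. These name Agilent Feature Extraction 12.0.3.1, while the submitters' processing notes name 11.5.1.1. A second table deposited by the authors holds log2 values. Its scale and centring are not stated, and each column followed the level used here after centring each probe on its median (correlation at least 0.999996). Its column medians were -0.12 to 0.09, and 0.88 for lame R2_2. It served as an alternative.

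Here, log2 processed signal minus the 75th percentile over 43653 noncontrol probes was used, with spots of a probe averaged. 35 probes whose spots were marked as outliers were left out, and 0 were saturated. Kept probes were those that every array of some group measured well above background. Names came, by accession, from a RefSeq table of ARS-UCD2.0: 27054 matched 1 gene and 16599 stayed under their file names. The fit used limma 3.58.1 (R 4.3.3), 2-sided, with a mean per group, 5 residual degrees of freedom and 2.35 from the prior. Its code was run on simulated data with independent arrays and no technical pairs, which cannot show how pairs affect these calls. Lower bounds compare the brighter group's mean with the dim group's mean after raising each dim value to its array's lowest signal well above background.

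The members, lists and tests were chosen with earlier results of these data known. Named were all members and their probes, up to 3 called genes with the largest change per list and comparison, and the 3 genes nearest in pattern to each member. Lists were counted and not tested, and 1 gene of the MAP3 kinase list is not reported here. Arrays with the same last number in their title shared a slide, and deviations from group means correlated between them at 0.04 to 0.24, so the slide was an alternative and not part of the design. Alternatives were quantile normalization, normexp (offset 50 on spot and background medians), the mean of a gene's probes, no filter, averaged technical pairs, lame R1 or lame R2 arrays alone, each array left out and values within slides. The number of arrays limits the precision. No sequences or coordinates are given, since the array annotation and the gene table are of different assemblies.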

Additional observations from a re-analysis of the deposited data

How the results depend on the processing

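Each of the 24 member differences (8 members in 3 comparisons) was recomputed under 19 settings, 17 of them with a test. Of these differences, 20 kept their direction in all. The exceptions were DUSP5 in lame minus normal crossbred (-0.60 with quantile normalization, -0.063 with normexp), GADD45B by the mean of its probes (0.26 in lame minus normal crossbred, -0.45 in normal crossbred minus Tharparkar), and GADD45B in lame minus Tharparkar (0.23 with lame R1 arrays alone, and -0.35 to 0.0026 with each array left out, the highest without lame R2_2). The cause was not tested. In lame against normal crossbred 1455 genes and 4 members were called. These were 356 and 2 with no filter, 167 and 1 with technical pairs averaged, and 178 to 1812 and 1 to 5 with each array left out. With lame R1 or lame R2 arrays alone 7166 and 6997 genes were called, since within-group spread then comes from technical pairs. In normal crossbred against Tharparkar 2829 genes and 2 members were called. These were 997 and 1 with no filter, 375 and 1 with pairs averaged, 8748 and 6 with lame R1 alone, 7149 and 6 with lame R2 alone, and 715 to 3969 and 1 to 4 with each array left out. Normexp and the mean of a gene's probes called 5 members each. In lame against Tharparkar 3521 genes and 6 members were called. DUSP5, which passed the filter through the Tharparkar group alone, is among the members called in both comparisons with Tharparkar. The genes were 1351 with no filter, 532 with pairs averaged (3 members), 8379 and 8788 with lame R1 or R2 alone, and 849 to 3913 with each array left out (4 to 6 members). The lowest counts came without a normal array of the comparison.

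With slide as a replicate block, 4, 2 and 6 members were called in the 3 comparisons (1002, 2271 and 2907 genes), as without it, and it changed no call of a member at the gene level. In the fit over probes, member probes called with the block were 5 in place of 6 in lame against normal crossbred (the brightest DUSP6 probe was lost, adjusted p = 0.054) and 2 in place of 5 in normal crossbred against Tharparkar. With the block, adjusted p against normal crossbred was 0.0094 for DUSP1, 0.035 for DUSP2, 0.043 for DUSP6 and 0.0061 for GADD45G. Signal over background limits DUSP4, DUSP5 and the dimmer probes.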
